A study of Mus musculus with 7 samples.

Results

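Class 3 semaphorins are secreted guidance proteins that act through receptor complexes in which a neuropilin binds the ligand and a class A or class D plexin carries the signal into the cell. *Sema3e* is the exception among the ligands, since its protein can bind Plxnd1 without a neuropilin. In the embryonic heart the family is known for guiding cardiac neural crest cells and endothelial cells, and for septation of the outflow tract and patterning of its vessels. The genes described here are the ligands *Sema3a*, *Sema3c*, *Sema3d*, *Sema3e* and *Sema3f*, the co-receptors *Nrp1* and *Nrp2*, and the plexins *Plxna2*, *Plxna4* and *Plxnd1*. They are 10 of 21000 protein-coding genes with a curated RefSeq transcription start site (TSS). Every deposited ATAC-seq peak from 50 kb upstream to 50 kb downstream of each gene body was taken. ATAC-seq marks accessible DNA by the insertions of a transposase, and it does not measure transcription.

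The 7 libraries came from cells sorted by FACS from the microdissected second heart field (SHF) region of mouse embryos at E9.5. GFP+ cells (n = 2, replicates 3 and 4) and GFP- cells (n = 2, replicates 1 and 2) were sorted for a GFP knock-in allele of *Hoxb1*, which marks the posterior SHF. The authors also denote this allele as *Hoxb1-*, the symbol they use for *Hoxb1*-deficient embryos. The zygosity of the allele is not given in the sources used here, and the allele is not listed for the other line. Tomato+ cells (n = 2, replicates 6 and 8) and Tomato- cells (n = 1, replicate 7) came from the *Mef2c-Cre;Rosa tdT* line, where a Cre driven by an enhancer of *Mef2c* marks the anterior SHF, the outflow tract and right ventricle and some cells of the dorsal mesenchymal protrusion, so that it labels some posterior cells as well. The label of GFP- does not name the line, and embryos were pooled for each sample. Where a value differs between libraries, fewer accessible cells and less accessibility per cell cannot be told apart.

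The libraries held between 64306 and 77746 peaks with a q-value of at most 0.01. Their tags, estimated from the background rate of each list and not counted, lay between 52340120 and 93074895. The run name kept with Tomato+ replicate 6 says YFP, against its label. At both driver genes the promoter fold enrichments of GFP+ and Tomato+ overlapped. The *Hoxb1* promoter had 3.73 and 2.88 in GFP+, 2.44 and 3.54 in Tomato+, 3.28 and 3.71 in GFP- and 3.41 in Tomato-. The *Mef2c* promoter had 7.10 and 5.86 in GFP+, 8.22 and 5.64 in Tomato+, 5.596 and 4.79 in GFP- and 4.35 in Tomato-, and its -log10 q was highest in Tomato+, at 61.6 and 19.3 beside 6.48 to 13.9 elsewhere. A promoter peak with q of at most 0.01 was present in each library for 6 to 8 of 10 heart field markers and for 3 or 4 of 4 neural tube markers. It was present for 2 or 3 of 8 endothelial markers, for 1 to 3 of 6 neural crest markers, for 0 to 4 of 6 endoderm markers and for 0 to 2 of 5 blood markers. Such a peak was present in all 7 libraries for 4 of 10 heart field and 3 of 4 neural tube markers. The counts for endothelial, neural crest, endoderm and blood markers were 1 of 8, 1 of 6, 0 of 6 and 0 of 5. Over all coding genes the share was 53.1%, so the heart field count does not stand out.

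Overlapping peaks were joined into 286 regions at the 10 loci, of 210347 regions genome-wide, each with q of at most 0.01 in at least 1 library. Of these, 15 lay in a promoter window of their own gene, from 1000 bp upstream to 100 bp downstream of a TSS, 6 in the promoter window of a neighbouring gene and 265 were distal. Most were seen in a single library. A peak with q of at most 0.01 was limited to 1 library in 189 regions, or 66.1%, beside 65.8% genome-wide, and 35 regions, or 12.2%, had one in 5 or more libraries, beside 16.3% genome-wide.

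Density differed between the loci. The longest ligand genes were the sparsest: *Sema3d* held 7 regions (2.29 per 100 kb), *Sema3e* 11 (3.32 per 100 kb) and *Sema3a* 23 (3.97 per 100 kb), all below the genome-wide 7.72 per 100 kb. The loci of the 2 shortest genes were the densest, with 41 regions at *Plxnd1* (29.2 per 100 kb) and 32 at *Sema3f* (24.8 per 100 kb). Most of both spans was flank, since the gene body covered 40.5 of 140.5 kb at *Plxnd1* and 29.0 of 129.0 kb at *Sema3f*. Of the *Sema3f* regions, 4 lay in promoters of other genes, so these densities are not those of the gene bodies. Regions that recurred in 5 or more libraries were also densest at those loci, at 2.85 and 3.10 per 100 kb, beside 0.30 at *Sema3e* to 1.86 at *Nrp2* for the other 8. At *Sema3e* the promoter was the single region that recurred in this way.

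**Figure D1:**
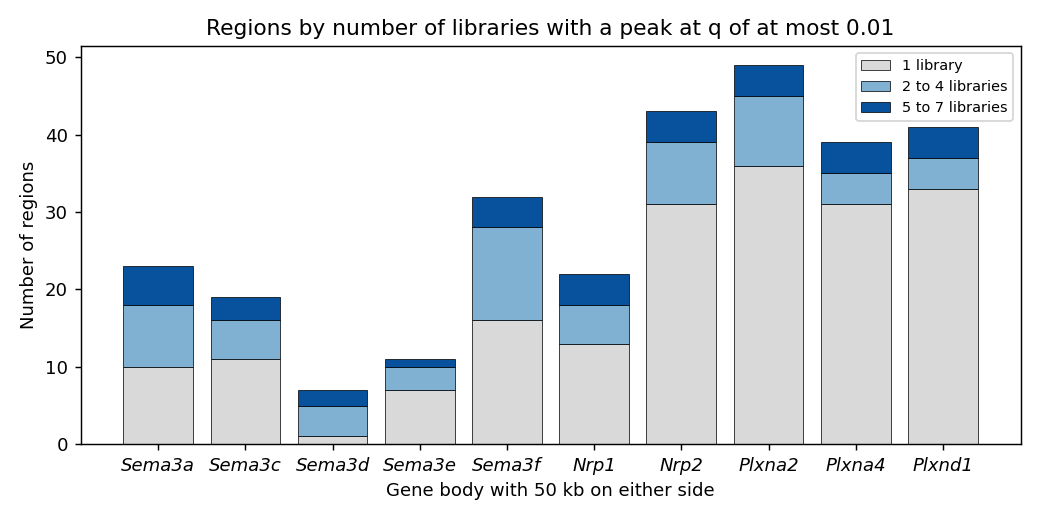
Number of regions at each locus (gene body with 50 kb on either side), divided by the number of libraries, of 7, with a peak at q of at most 0.01. Regions seen in 1 library make up 189 of 286, and *Sema3e* has 1 region in the class of 5 to 7 libraries.

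**Figure D2:**
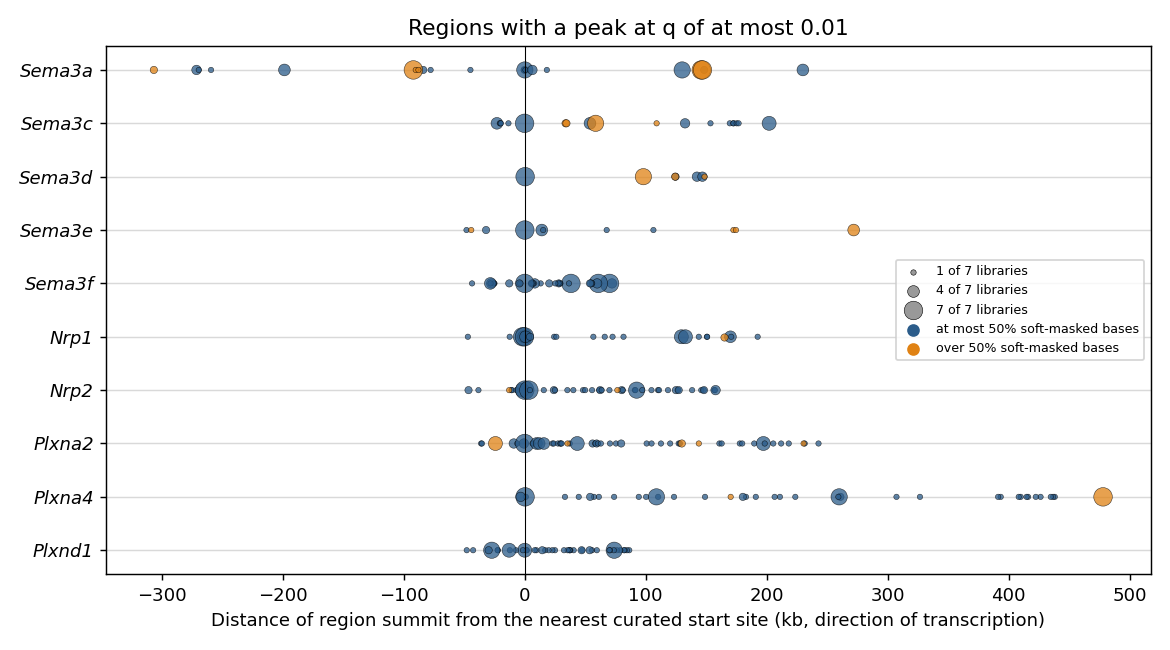
Distance in kb of each region's summit from the nearest curated TSS of its gene, in the direction of transcription. Point area grows with the number of libraries with q of at most 0.01, and orange marks summit windows with over 50% soft-masked (repeat) bases. Of the 35 regions with such a peak in 5 or more libraries, 10 are promoters of the gene itself, 3 are promoters of other genes and 22 are distal, and the distal points of *Sema3a* and *Plxna4* with a peak in all 7 libraries are orange.

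All 10 genes had a peak of any q in their promoter window in each of the 7 libraries, as did 60.7% of coding genes, and 8 of 10 had one with q of at most 0.01 in all 7, which held for 53.1% of coding genes. The exceptions were *Sema3a*, with a -log10 q of 1.67 in Tomato-, and *Plxnd1*, with 1.81 and 1.43 in the Tomato+ libraries. The values below are the authors' fold enrichment, the ratio of a peak's pileup to the local background of its own library, for the peak with the smallest p in the promoter's region. At these depths the ratio moves in steps. The *Sema3a* and *Sema3e* promoters, for instance, share the value 4.27 in Tomato+ replicate 6 and 5.10 in Tomato+ replicate 8.

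Among the ligands, *Sema3c*, which guides neural crest cells into the outflow tract, and *Sema3d* had the most accessible promoters. The *Sema3c* promoter had a fold enrichment of 12.4 and 14.7 in GFP+, 6.24 and 15.5 in Tomato+, 12.04 and 9.84 in GFP- and 9.02 in Tomato-. Tomato+ replicate 6 was the lowest of the 7 libraries and Tomato+ replicate 8 the highest, so GFP+ and Tomato+ overlapped. The difference of GFP+ from Tomato+ was 0.54 ± 0.33 (log2, SE; limma adjusted p = 0.679) and became -0.04 without Tomato+ replicate 6. The *Sema3d* promoter had 12.4 and 9.02 in GFP+, 6.39 and 6.99 in Tomato+, 9.31 and 8.81 in GFP- and 6.91 in Tomato-. Both GFP+ libraries were above both Tomato+ libraries, and so were both GFP- libraries. The difference of GFP+ from Tomato+ was 0.71 ± 0.23 (log2, SE; limma adjusted p = 0.465).

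These promoters differ in base composition, and the 250 bases upstream of the TSS (RefSeq, GRCm38.p6) are shown for the ligands with the strongest promoters and for *Plxnd1*, whose promoter was lowest in Tomato+. Capitals mark matches, on either strand, to 8 short motifs. Joint sites of PBX and HOX proteins were searched as TGATNNAT, and sites of their partner MEIS as TGACAG. The GATA factors were searched as AGATAA, the TEAD factors as GGAATG, the NKX factors as CAAGTG, the TBX factors as AGGTGT, the RUNX factors as TGTGGT and the FOX factors as TGTTTAC.
Sema3c promoter, chr5:17574566-17574815, plus strand: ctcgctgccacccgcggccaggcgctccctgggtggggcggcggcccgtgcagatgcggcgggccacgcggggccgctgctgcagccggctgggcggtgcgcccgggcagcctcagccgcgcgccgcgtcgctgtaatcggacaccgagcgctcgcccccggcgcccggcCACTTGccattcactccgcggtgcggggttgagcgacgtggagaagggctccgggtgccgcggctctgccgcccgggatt
Sema3d promoter, chr5:12382916-12383165, plus strand: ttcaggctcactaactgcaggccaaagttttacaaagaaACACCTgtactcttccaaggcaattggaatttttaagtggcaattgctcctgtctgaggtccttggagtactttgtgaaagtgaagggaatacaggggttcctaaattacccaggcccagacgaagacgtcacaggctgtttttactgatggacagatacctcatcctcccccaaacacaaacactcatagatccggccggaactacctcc
Plxnd1 promoter, chr6:115995006-115995255, minus strand: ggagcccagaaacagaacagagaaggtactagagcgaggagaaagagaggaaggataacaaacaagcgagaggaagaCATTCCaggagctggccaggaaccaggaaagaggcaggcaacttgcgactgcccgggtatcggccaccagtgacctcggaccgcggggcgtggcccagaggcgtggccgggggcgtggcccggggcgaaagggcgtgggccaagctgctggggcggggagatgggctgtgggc
The *Sema3c* promoter had 78.4% G and C and held 1 NKX match, the *Sema3d* promoter had 46.8% and held 1 TBX match, and the *Plxnd1* promoter had 64.8% and held 1 TEAD match. Such matches are common, at 11.6%, 11.8% and 12.6% of 32851 RefSeq promoters. A curated promoter sequence was at hand for 8 of the 10 genes, and none of the 8 held a PBX-HOX, GATA or FOX match. These matches were present in 7.68%, 9.99% and 3.17% of the 32851 RefSeq promoters, so their absence from 8 sequences is not unusual.

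*Sema3e*, the ligand of Plxnd1, had a promoter at 6.02 and 5.75 in GFP+, 4.27 and 5.10 in Tomato+, 4.28 and 4.88 in GFP- and 4.10 in Tomato-. Both GFP+ libraries were above the other 5. The difference from Tomato+ was 0.36 ± 0.21 (log2, SE; limma adjusted p = 0.673). The *Sema3a* promoter varied within the groups, at 4.52 and 6.76 in GFP+, 4.27 and 5.10 in Tomato+, 3.52 and 6.78 in GFP- and 2.81 in Tomato-. The difference of GFP+ from Tomato+ was 0.27 ± 0.31 (log2, SE; limma adjusted p = 0.851). The *Sema3f* promoter had 3.43 and 4.12 in GFP+, 3.52 and 3.96 in Tomato+, 2.83 and 4.33 in GFP- and 4.35 in Tomato-. GFP+, Tomato+ and GFP- overlapped, and Tomato- was the highest of the 7 libraries. The difference of GFP+ from Tomato+ was 0.04 ± 0.25 (log2, SE; limma adjusted p = 0.980).

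The co-receptor promoters had fold enrichments between 2.69 and 4.21. The *Nrp1* promoter had 3.29 and 3.42 in GFP+, 3.97 and 3.07 in Tomato+, 3.75 and 2.69 in GFP- and 3.31 in Tomato-, a difference of GFP+ from Tomato+ of -0.06 ± 0.25 (log2, SE; limma adjusted p = 0.966). The *Nrp2* promoter had 4.002 and 3.68 in GFP+, 3.73 and 4.21 in Tomato+, 3.80 and 3.33 in GFP- and 3.23 in Tomato-, a difference of -0.04 ± 0.21 (log2, SE; limma adjusted p = 0.976). At both, GFP+ and Tomato+ overlapped. The strongest *Nrp1* region lay 1.76 kb upstream of the TSS (chr8:128356872-128357641), within the lncRNA gene *A930035F09Rik*. It had 8.73 and 5.92 in GFP+, 5.73 and 5.04 in Tomato+, 5.86 and 5.08 in GFP- and 4.197 in Tomato-. GFP+ was above Tomato+ by 0.43 ± 0.25 (log2, SE; limma adjusted p = 0.667). *Nrp2* had a similar pair of weaker flanking regions, 2.09 kb upstream and 3.36 kb downstream of the TSS, in the first intron, with fold enrichments between 2.50 and 4.01.

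Among the plexins, *Plxna2*, a partner of the neuropilins in Sema3c signalling, had the most accessible promoter. It had 7.39 and 8.27 in GFP+, 5.42 and 6.55 in Tomato+, 5.84 and 6.97 in GFP- and 4.65 in Tomato-. Both GFP+ libraries were above the other 5, and the difference from Tomato+ was 0.42 ± 0.22 (log2, SE; limma adjusted p = 0.620). The *Plxna4* promoter separated marker-positive from marker-negative cells for both markers. It had 4.61 and 4.27 in GFP+ and 4.47 and 4.45 in Tomato+, above 3.36 and 3.80 in GFP- and 3.10 in Tomato-. Neither difference passed the test (limma adjusted p = 0.885 and 0.99997), and GFP+ and Tomato+ differed by 0.02 ± 0.21 (log2, SE; limma adjusted p = 0.991).

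*Plxnd1*, best known as a plexin of endothelial cells, had higher mean values in the marker-negative cells. Its promoter had 4.17 and 4.53 in GFP- and 3.78 in Tomato-, 4.19 and 2.76 in GFP+, and 2.55 and 2.32 in Tomato+. GFP+ replicate 3 lay within the range of GFP-, and the Tomato+ libraries were the lowest of the 7, with peaks at 75.3% and 81.6% of the way down their lists by fold enrichment. The difference of Tomato+ from Tomato- was -0.68 ± 0.29 (log2, SE; limma adjusted p = 0.99997), that of GFP+ from GFP- was -0.39 ± 0.24 (limma adjusted p = 0.848), and that of GFP+ from Tomato+ was 0.51 ± 0.24 (limma adjusted p = 0.587). Both differences of GFP+ rested on which GFP+ library was used. Without GFP+ replicate 3 the difference from GFP- was -0.67 and that from Tomato+ was 0.23, and without GFP+ replicate 4 they were -0.11 and 0.79. Promoter fold enrichments were also summed over marker lists, where a promoter without a peak adds nothing. The sum of the 5 blood markers was higher in the marker-negative libraries, at 6.45 and 8.04 in GFP- and 10.3 in Tomato-, beside 2.04 and 2.25 in GFP+ and 2.15 and 5.55 in Tomato+. GFP+ replicate 3 had the lowest blood sum and the second highest *Plxnd1* promoter value. These sums rest mostly on weak peaks. A blood marker peak with q of at most 0.01 was present for 1 marker in GFP- replicate 1, for 2 in Tomato- and for 0 in every other library. Of the blood markers, *Ptprc* was without a peak in all 7 libraries and *Hbb-bh1* had one in Tomato- alone. *Klf1* went the other way in part, with no peak in Tomato- or GFP+ replicate 4 and values between 2.04 and 2.72 elsewhere. The sum over the 8 endothelial markers overlapped between marker-positive and marker-negative libraries, at 9.38 and 23.1 in GFP-, 14.2 in Tomato-, 17.4 and 11.4 in GFP+ and 16.7 and 14.3 in Tomato+. Of the endothelial markers, *Kdr* and *Cldn5* had a promoter peak in each of the 7 libraries. *Cdh5*, *Tie1* and *Tek* had one in some libraries but not all. *Pecam1*, *Erg* and *Emcn* had one in 2, 1 and 1 of the 7 libraries. The part of other cell types in the *Plxnd1* values was not tested.

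**Figure D3:**
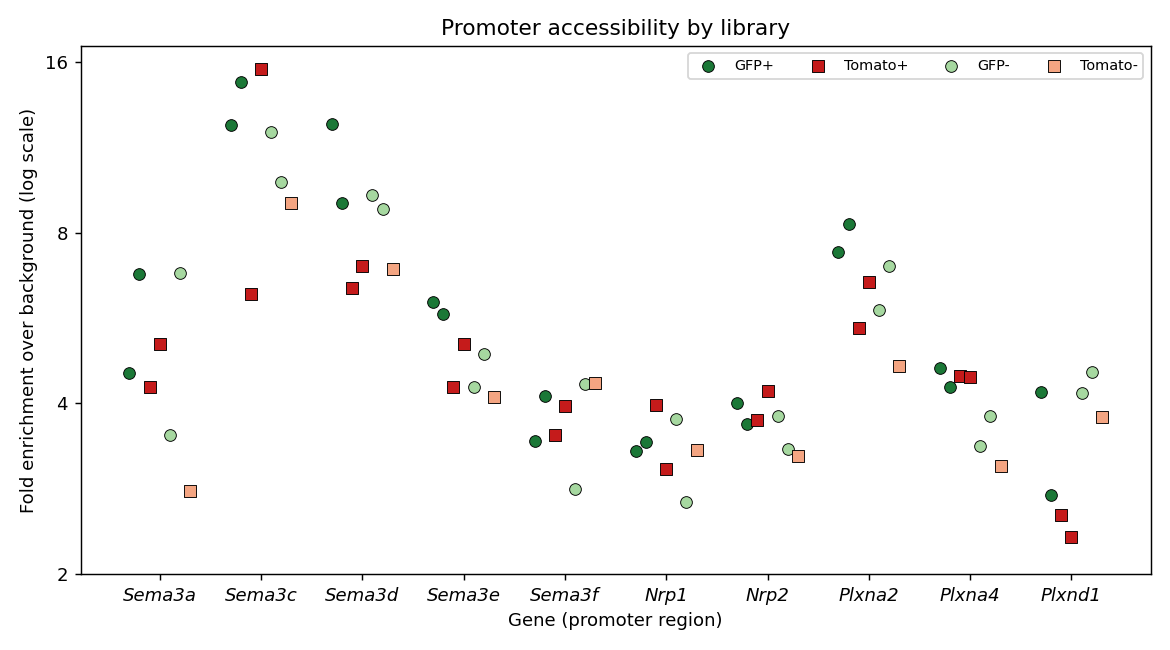
Fold enrichment of the promoter region over local background (log axis) in each of the 7 libraries. Circles mark libraries sorted for GFP and squares those sorted for Tomato. *Sema3c* and *Sema3d* reach 15.5 and 12.4, GFP+ lies above Tomato+ at *Sema3d*, *Sema3e*, *Plxna2* and *Plxnd1*, and at *Plxnd1* the 2 Tomato+ libraries are the lowest, at 2.55 and 2.32.

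In all, GFP+ promoter values lay entirely above Tomato+ at 4 of 10 genes and entirely below at 0. Over 12740 coding genes with a promoter peak in all 7 libraries, this held for 21.4% and 11.7%. The smallest p that a two-sided exact permutation test of 2 against 2 libraries can give is 0.333.

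The test across regions used the 34 regions of the 10 loci, of 34032 genome-wide, that held a deposited peak in all 7 libraries. The other 252 regions were not tested. By limma with Benjamini-Hochberg adjustment over all 34032 regions, 0 of 34 were called at an adjusted p under 0.05 between GFP+ and Tomato+ (0.00% of all regions), 0 between GFP+ and GFP- (0.00%) and 0 between Tomato+ and Tomato- (0.00%). At an unadjusted p under 0.05 the counts were 4, 3 and 1 of 34, beside 8.63%, 6.24% and 3.55% of all regions. The median difference of the 34 was 0.05, 0.10 and 0.14 on the log2 scale, beside 0.0070, 0.0063 and -0.0045 over all regions. GFP+ lay entirely above GFP- in 14 of 34 regions (41.2%), beside 19.2% of all regions, and entirely below in 3 (8.82%), beside 18.1%. Tomato+ lay above Tomato- in 19 (55.9%), beside 30.6%, and below in 5 (14.7%), beside 31.1%. Between GFP+ and Tomato+ the counts were 8 higher (23.5%) and 6 lower (17.6%), beside 19.6% and 18.6%. GFP+ enters 2 of these comparisons, and so does Tomato+, so the counts share libraries.

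**Figure D4:**
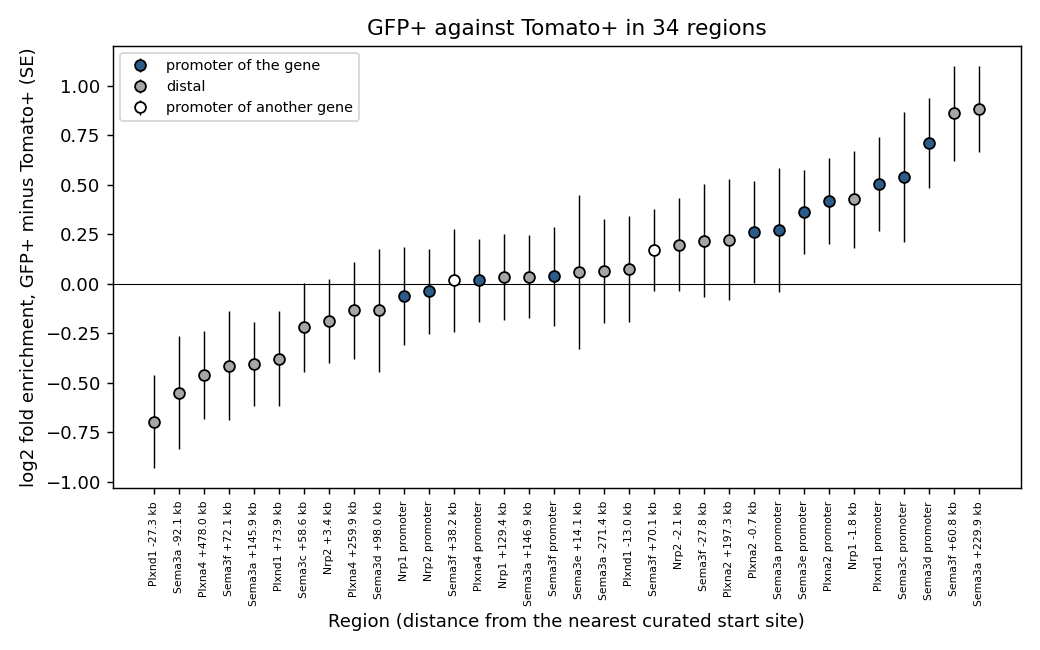
Difference of GFP+ from Tomato+ in log2 fold enrichment after quantile normalization (points, with SE from limma) for the 34 regions with a peak in all 7 libraries, in order of size. The range runs from -0.70 at *Plxnd1* -27.3 kb to 0.88 at *Sema3a* +229.9 kb, and no region passed an adjusted p of 0.05.

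Distal regions with the largest differences between GFP+ and Tomato+ lay at *Sema3a*, *Sema3f* and *Plxnd1*. Distances are given from the nearest curated TSS of the gene, of which *Sema3a* and *Sema3f* have 3 each. The *Sema3a* region 229.9 kb downstream of the TSS (chr5:13628695-13629322), beyond the 3' end of the gene, was named after its values were seen. It had 5.42 and 6.26 in GFP+, 3.29 and 3.11 in Tomato+, 4.28 and 3.80 in GFP- and 2.37 in Tomato-. Both GFP+ libraries were the highest of the 7, with a difference from Tomato+ of 0.88 ± 0.22 (log2, SE; limma adjusted p = 0.411). The *Sema3f* region 60.8 kb downstream of its TSS (chr9:107644532-107645070), beyond other genes downstream and 9369 bp from the nearest gene start, that of *Gnai2*, had 7.96 and 6.63 in GFP+, 3.40 and 4.9996 in Tomato+, 4.74 and 4.98 in GFP- and 4.38 in Tomato-. GFP+ was again the highest group, 0.86 ± 0.24 above Tomato+ (log2, SE; limma adjusted p = 0.465). The region 27.3 kb upstream of *Plxnd1* (chr6:116022065-116022472) went the other way, with 3.31 and 3.08 in GFP+, 5.26 and 5.12 in Tomato+, 3.003 and 4.34 in GFP- and 4.598 in Tomato-. Both Tomato+ libraries were the highest of the 7, and GFP+ was lower by 0.70 ± 0.23 (log2, SE; limma adjusted p = 0.478). The bases around its summit overlap the neighbouring protein-coding gene *Tmcc1*.

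The 201 bases centred on the median summit of these regions (GRCm38) are shown with the same motifs in capitals.
Sema3a +229.9 kb, chr5:13629125-13629325, plus strand: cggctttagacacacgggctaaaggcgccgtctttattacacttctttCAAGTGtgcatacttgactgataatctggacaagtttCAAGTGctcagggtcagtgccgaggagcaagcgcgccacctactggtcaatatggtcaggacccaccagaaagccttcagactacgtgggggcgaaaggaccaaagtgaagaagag
Sema3f +60.8 kb, chr9:107644660-107644860, plus strand: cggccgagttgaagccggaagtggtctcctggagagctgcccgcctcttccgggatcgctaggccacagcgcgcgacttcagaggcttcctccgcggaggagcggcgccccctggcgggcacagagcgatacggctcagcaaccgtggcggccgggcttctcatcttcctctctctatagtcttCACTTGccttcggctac
Plxnd1 -27.3 kb, chr6:116022192-116022392, plus strand: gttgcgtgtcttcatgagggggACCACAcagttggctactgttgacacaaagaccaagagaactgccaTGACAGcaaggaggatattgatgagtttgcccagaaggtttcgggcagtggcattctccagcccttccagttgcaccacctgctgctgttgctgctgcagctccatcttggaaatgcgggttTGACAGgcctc
The *Sema3a* window held 2 NKX matches, the *Sema3f* window 1 NKX match and the *Plxnd1* window 2 MEIS matches and 1 RUNX match. NKX, MEIS and RUNX matches were present in 6.88%, 10.5% and 10.5% of the 34032 windows of the same length. The 3 windows had 0%, 0% and 12.4% soft-masked bases, the bases that the RefSeq genome marks as repeats.

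The distal regions with the highest median fold enrichment at *Sema3a* and *Plxna4* were of another kind. At *Sema3a* the first lay 92.1 kb upstream of the nearest curated TSS (chr5:13304577-13304812), inside the span of predicted longer transcripts. The second lay 146.9 kb downstream of another curated TSS, in intron 6 (chr5:13546033-13546311). The first had 7.83 and 9.01 in GFP+, 10.2 and 15.3 in Tomato+, 14.6 and 8.14 in GFP- and 14.2 in Tomato-. The second had 12.05 and 12.3 in GFP+, 12.1 and 12.8 in Tomato+, 10.2 and 9.36 in GFP- and 10.8 in Tomato-. Both were above the *Sema3a* promoter in every library. Another region, 145.9 kb downstream of the TSS and named after its values were seen, had values between 8.43 and 13.3 and was above the first in 4 of 7 libraries. At *Plxna4* the strongest lay 478.0 kb downstream of the TSS, past the end of the gene (chr6:32110002-32110519), with 7.38 and 6.55 in GFP+, 10.3 and 8.99 in Tomato+, 7.91 and 8.03 in GFP- and 10.1 in Tomato-. It too exceeded the promoter in every library. At *Sema3c* a weaker region in intron 2, 58.6 kb from the TSS (chr5:17633220-17633662), had 5.79 and 5.43 in GFP-, above 3.31 and 3.75 in GFP+, a difference of GFP+ from GFP- of -0.72 ± 0.22 (log2, SE; limma adjusted p = 0.745).

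The windows of these regions, shown because of what they consist of, were mostly repeat sequence.
Sema3a -92.1 kb, chr5:13304589-13304789, plus strand: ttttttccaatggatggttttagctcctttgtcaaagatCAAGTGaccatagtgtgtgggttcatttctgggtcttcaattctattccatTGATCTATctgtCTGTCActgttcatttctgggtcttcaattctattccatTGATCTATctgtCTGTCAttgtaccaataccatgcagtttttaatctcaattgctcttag
Sema3a +146.9 kb, chr5:13546098-13546298, plus strand: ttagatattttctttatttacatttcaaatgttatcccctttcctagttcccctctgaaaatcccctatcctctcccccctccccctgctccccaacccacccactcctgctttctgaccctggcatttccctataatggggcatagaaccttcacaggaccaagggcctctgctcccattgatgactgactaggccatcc
Plxna4 +478.0 kb, chr6:32110043-32110243, plus strand: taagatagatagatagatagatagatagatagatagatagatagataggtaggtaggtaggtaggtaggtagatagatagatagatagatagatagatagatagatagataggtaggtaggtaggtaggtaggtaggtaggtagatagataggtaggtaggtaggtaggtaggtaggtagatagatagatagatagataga
Sema3c +58.6 kb, chr5:17633283-17633483, plus strand: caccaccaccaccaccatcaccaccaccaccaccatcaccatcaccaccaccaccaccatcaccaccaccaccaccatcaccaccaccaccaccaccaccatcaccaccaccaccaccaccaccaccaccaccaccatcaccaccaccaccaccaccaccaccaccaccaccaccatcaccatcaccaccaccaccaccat
Soft-masked bases made up 94.5%, 100%, 100% and 100% of them. In the *Sema3a* -92.1 kb window a stretch that holds a PBX-HOX and a MEIS match recurred after 51 bases, so that each match was present 2 times. The *Plxna4* window matched itself at 90.5% of bases after a shift of 12 bases and the *Sema3c* window at 95.0% after 60. The median best self-match over all 34032 windows was 37.4%. Of the 22 distal regions at the 10 loci with q of at most 0.01 in 5 or more libraries, 7, or 31.8%, had over 50% soft-masked bases, beside 58.1% of 21507 such distal regions genome-wide. Among distal regions seen in 1 library the shares were 7.07% and 16.04%, and no promoter region of the 10 loci was of this kind. Reads from repeat copies can be placed at more than one locus, and whether these peaks arose at the listed positions was not tested.

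The other distal regions named for their medians include several with no peak in at least 1 library. In intron 3 of *Plxna2*, 43.4 kb from the TSS (chr1:194663007-194663461), the fold enrichment was 8.21 and 5.92 in GFP-, 5.72 and 4.003 in GFP+, 2.83 in Tomato+ replicate 8 and 3.67 in Tomato-, with no peak in Tomato+ replicate 6. The 4 libraries sorted for GFP were above the rest. In intron 3 of *Plxna4*, 108.8 kb from the TSS (chr6:32479170-32479696), Tomato+ was the highest, with 6.01 and 5.02, beside 4.13 and 3.16 in GFP+, 3.10 in GFP- replicate 2 and 4.600 in Tomato-, and GFP- replicate 1 had no peak. In intron 1 of *Sema3e*, 14.1 kb from the TSS (chr5:14039049-14039459), GFP- replicate 2 stood alone at 8.14, with the other 6 libraries between 2.59 and 4.53. In intron 8 of *Sema3d*, 146.9 kb from the TSS (chr5:12529834-12530227), the peak had 4.28 and 6.24 in GFP-, 3.61 and 2.25 in GFP+ and 3.11 in Tomato+ replicate 8, and Tomato+ replicate 6 and Tomato- had none. In intron 12 of *Nrp1*, 132.8 kb from the TSS (chr8:128491758-128491993), 6 libraries had values between 3.002 and 5.33 and Tomato+ replicate 6 had no peak. Downstream of *Sema3c*, 202.0 kb from the TSS (chr5:17776670-17776905), 6 libraries had values between 3.01 and 4.93 and GFP+ replicate 4 had none. Upstream of *Sema3f* (-28.5 kb) and downstream of *Plxnd1* (+73.9 kb) the values lay between 2.07 and 3.08 in 6 libraries and between 2.46 and 4.005 in all 7. The *Plxnd1* +73.9 kb window had 0% soft-masked bases but matched itself at 91.1% of bases after a shift of 100. The remaining regions of this rank, *Sema3d* +98.0 kb, *Sema3e* +271.9 kb and *Plxna2* -24.3 kb, were fully soft-masked, with 100% of bases, and had values between 2.44 and 6.69 where a peak was present.

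A peak with q of at most 0.01 in both GFP+ libraries and no deposited peak in either Tomato+ library was present at 2 of 286 regions, beside 0.518% genome-wide, and the reverse at 0 of 286, beside 0.397%. One lay in intron 2 of *Sema3c*, 53.9 kb from the TSS (chr5:17628523-17628950), with a fold enrichment of 3.61 and 3.50 in GFP+ and of 6.04 and 7.60 in GFP-. The other lay in intron 1 of *Plxna2*, 11.9 kb from the TSS (chr1:194631592-194631950), with 3.37 and 3.69 in GFP+ and 3.67 and 4.17 in GFP-. Neither had a peak in Tomato-. Both were thus found in all 4 libraries sorted for GFP and in none of the 3 libraries sorted for Tomato. GFP- was above GFP+ in both libraries at *Sema3c*, and the groups overlapped at *Plxna2*.
Sema3c +53.9 kb, chr5:17628628-17628828, plus strand: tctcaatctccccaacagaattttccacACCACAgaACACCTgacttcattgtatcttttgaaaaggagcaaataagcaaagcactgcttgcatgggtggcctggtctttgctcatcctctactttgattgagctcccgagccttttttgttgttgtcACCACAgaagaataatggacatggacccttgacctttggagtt
Plxna2 +11.9 kb, chr1:194631634-194631834, plus strand: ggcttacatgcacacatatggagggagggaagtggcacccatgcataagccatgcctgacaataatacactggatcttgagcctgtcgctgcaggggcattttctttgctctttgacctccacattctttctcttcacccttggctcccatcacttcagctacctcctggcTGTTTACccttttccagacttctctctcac
The *Sema3c* window held 1 TBX and 2 RUNX matches and the *Plxna2* window 1 FOX match, beside 7.65%, 10.5% and 1.41% of windows of the same length. Soft-masked bases made up 11.4% and 28.4%. Presence in all 4 GFP libraries and in none of the 3 Tomato libraries held for 0.286% of regions genome-wide, and 11.8% of the GFP+ only regions genome-wide had peaks in both GFP- libraries and none in Tomato-. The reverse, in all 3 Tomato libraries and in none of the GFP libraries, held for 3 regions of the 10 loci, in introns of *Sema3f*, *Nrp1* and *Plxna4*, beside 0.427% genome-wide, with fold enrichments between 2.07 and 3.61. Each of these 3 had q of at most 0.01 in 1 library only, whereas the *Sema3c* and *Plxna2* regions had it in all 4 GFP libraries. Line, litter and library preparation cannot be told apart here from one another.

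Other members of the pathway were counted by the same promoter window. A promoter peak with q of at most 0.01 in all 7 libraries was present for 10 of 15 other semaphorins, 4 of 6 other plexins, 13 of 16 intracellular effectors and 5 of 8 VEGF ligands and receptors, which share the neuropilins, beside the 53.1% of all coding genes. *Sema3b* had a promoter peak in 2 libraries only, at 2.44 in GFP+ replicate 4 and 2.197 in GFP- replicate 2, and *Sema3g* had 4.93 and 3.41 in GFP+, 2.90 and 3.35 in Tomato+, 2.62 and 3.89 in GFP- and 2.32 in Tomato-. Where they had a peak, both class 3 genes had a lower promoter fold enrichment than *Sema3c* and *Sema3d* in the same library. Of the list genes with a promoter peak in all 7 libraries, GFP+ lay entirely above Tomato+ for 3 of 13 semaphorins, 1 of 5 plexins, 3 of 15 effectors and 2 of 7 VEGF genes, beside 21.4% of coding genes, and entirely below for 0, 0, 1 and 0, beside 11.7%. The plexin was *Plxna1*, with 5.49 and 4.56 in GFP+ and 3.39 and 3.84 in Tomato+.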

How the data were processed

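ATAC-seq libraries were prepared from 7 sorted samples at E9.5, and the authors aligned the reads to GRCm38 and called peaks in each library with MACS2. The labels name version 2.1.1, the header kept with 1 list names 2.1.0.20150731, with tags shifted by 37 bp and extended to 73 bp and no control library. The files deposited by the authors hold, for each peak, the pileup (coverage signal at the summit, not scaled to depth), the -log10 p-value, the fold enrichment (ratio of pileup to local background) and the -log10 q-value. Replicates were not pooled, and values in repeats depend on how reads with several matches were placed.

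From these lists, summits of 1 peak were collapsed to the one with the smallest p. Peaks with q of at most 0.01 in at least 1 library were merged over all chromosomes where they shared 1 bp or more, and each library was given the deposited peak of any q that overlapped a region with the smallest p. The smallest background rate of a list gave its tags, with 73 bp a tag over an effective genome of 1870000000 bp. Promoters used 44322 curated RefSeq transcripts of GRCm38.p6. limma 3.58.1 in R 4.3.3 was fitted to quantile-normalized log2 fold enrichment of the 34032 regions with a peak in all 7 libraries, in 4 groups that shared 1 estimate of the spread. On simulated GFP+ against Tomato+ data over 34032 regions it recovered 39% of 100 changes of 2-fold and 100% of 100 changes of 4-fold. The simulated spread was drawn from 1 pool over all regions. Differences in spread between regions or libraries were therefore not kept, and the rates may not hold for the real values. Nothing says that replicates came from separate litters, so p-values measure the spread between samples.

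The genes, lists, motifs and tests were chosen with earlier results of these data known. Text names the promoter of each gene, its 2 distal regions with the highest median fold enrichment, called regions and those of 1 sorted population only, and any other choice is stated where it is made. Alternatives were a q limit of 0.0001, the 30000 best peaks, 50% overlap, 25 kb flanks, other promoter windows, median centring, depth-scaled pileup, missing peaks set to the lowest fold enrichment, and each library left out.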

Additional observations from a re-analysis of the deposited data

How the results depend on the processing

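The 286 regions at the 10 loci became 85 at a q limit of 0.0001 and 73 from the 30000 best peaks of each library, and lay between 250 and 275 when 1 library was left out. GFP+ only regions numbered 2, became 4 when regions had to share 50% of the shorter interval, and lay between 2 and 25 without 1 library. Tomato+ only regions numbered 0 and lay between 0 and 27 without 1 library, since a lone library then stands for its population. The highest counts came without GFP+ replicate 3 or 4 (25 GFP+ only) and without Tomato+ replicate 8 (27 Tomato+ only). The limma calls between GFP+ and Tomato+ were 0 and lay between 0 and 2 without 1 library, with 2 without Tomato+ replicate 8. Those between Tomato+ and Tomato- became 13531 (1432 higher, 12099 lower) with missing peaks set to the lowest fold enrichment, of which 2 higher and 27 lower lay at the 10 loci. In that setting absent peaks share 1 value in each library, which can shrink the spread, and Tomato- has 1 library. The same setting gave 0 calls between GFP+ and Tomato+ and 0 between GFP+ and GFP-. The cause of the calls was not tested. No region of the 10 loci was called in any other setting.

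Of the differences of GFP+ from Tomato+ at promoters, 6 changed sign. Without 1 library, *Sema3a* lay between -0.031 and 0.58, *Sema3c* between -0.044 and 1.12, *Sema3f* between -0.10 and 0.19, *Nrp1* between -0.25 and 0.14, *Nrp2* between -0.11 and 0.046, and *Plxna4* between -0.020 and 0.068. *Nrp2* was also 0.0097 with missing peaks set to the lowest fold enrichment, and *Plxna4* was -0.0094 with median centring and -0.067 with depth-scaled pileup. The cause was not tested. The differences at *Sema3d* (0.47 to 0.95), *Sema3e* (0.26 to 0.48), *Plxna2* (0.32 to 0.52), *Plxnd1* (0.23 to 0.79), *Sema3a* +229.9 kb (0.77 to 1.01), *Sema3f* +60.8 kb (0.60 to 1.12) and *Plxnd1* -27.3 kb (-0.74 to -0.65) kept their sign in all 11 alternatives run on each. No paired analysis was run because the labels do not say which libraries, if any, came from the same pool of embryos. With 2 libraries a group, 39% of 2-fold changes were recovered in a simulation with the same spread in every region. Differences of this size can thus be missed, at a rate that is not known for the real values.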
